A study of Mus musculus with 6 samples.

Results

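The 9 genes Zscan4c, Zscan4d, Zscan4f, Usp17lb, Gm8300, Zfp352, Tcstv1, Tcstv3 and Eif1a, listed together as genes of the 2-cell-like state of mouse embryonic stem cells, were followed in the p53-deficient and wild-type (WT) haploid cells of the series. The genes were taken by gene symbol from the 54532 genes of the deposited table, where all 9 were found. The series holds 6 libraries of poly(A)-selected RNA from haploid embryonic stem cells of strain 129SV, 3 from p53-deficient cells and 3 from WT cells. Sample titles call the p53-deficient libraries P53ki, the genotype field gives them as P53-negative haploid and the series design as a knockout set against WT. No treatment or time point is named for either group, and the titles tell no lines or clones apart within a genotype, so loss of p53 and a difference between lines, clones or cultures cannot be told apart. Nothing states that replicates were separate cultures, and the p-values therefore rest on a spread among libraries that could be technical.

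Embryonic stem cell cultures contain a rare and passing population of cells that switch on genes of the 2-cell embryo, the stage at which the mouse genome is first transcribed at scale. The homeodomain factor Dux stands at the head of this program, the proteins Dppa2 and Dppa4 act before it, and repressive chromatin complexes keep it silent in most cells. In mouse embryonic stem cells p53 has been described as an activator of Dux after DNA damage. Since these are bulk libraries, more cells in this state and more RNA per cell cannot be told apart.

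Reads in listed genes, rebuilt from the deposited values, numbered 11536412 to 21218976 in the p53-deficient libraries and 17065841 to 20331905 in the WT libraries. Trp53, the targeted gene, stood at 9.71, 9.71 and 9.98 FPKM (reads per kilobase of a gene, set relative to the size of the library) in p53-deficient libraries, against 64.5, 69.8 and 69.6 FPKM in WT libraries. Stem cell markers were abundant in both groups, with Pou5f1 at 407 ± 15.5 FPKM in p53-deficient and 371 ± 4.43 FPKM in WT cells and Nanog at 221 ± 6.09 FPKM in p53-deficient and 330 ± 0.879 FPKM in WT cells (SD, n = 3 each). Of the 8 listed, 3 were called higher, 4 lower and 1 did not pass. Among all tested genes, 35.3% were called higher and 31.3% lower. The 8 summed to 2388 to 2458 FPKM in p53-deficient libraries and to 3372 to 3435 FPKM in WT libraries. Most of that gap lay in 1 gene, Dppa5a, with a mean of 1075 FPKM in p53-deficient and 2007 FPKM in WT cells. Markers of fibroblasts, the usual feeder cells, summed to 334 to 354 FPKM over 14 genes in p53-deficient libraries and to 1333 to 1347 FPKM in WT libraries, with no marker at 0 in either group. Of these, 13 of 13 tested were called lower in p53-deficient cells, as were 31.3% of all tested genes. Their log2 fold changes ran from -0.46 for Vim to -3.37 for Lox, with a median of -2.24. Reads of 4 Y-linked genes numbered 103 in the p53-deficient and 1161 in the WT libraries. The part of these differences in the values below was not tested.

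Most of the 9 genes belong to families of near-identical copies, and reads of such copies can be exchanged in counting. The Zscan4 copies lie on chromosome 7 (mm10, 10794242 to 11614112), where the deposited table lists 9. Their longest transcripts in GENCODE release M21 are at least 95% identical to those of 8 other copies each. The members Zscan4c, Zscan4d and Zscan4f span 11005745 to 11010547, 11161374 to 11166159 and 11397915 to 11402318. Zscan4c and Zscan4f share 99.7% of 1747 aligned bases. The stretches just before their transcription starts are shown for the 3 members, which were all higher in p53-deficient libraries, and for Zscan4b, whose groups overlapped. Zscan4b had only 16 reads in p53-deficient and 7 in WT libraries. Its depth-adjusted read ratio was 2.58 (95% exact interval 1.00 to 7.42), so it was not shown to be unchanged. Each line gives the 160 bases before the RefSeq start (GRCm38.p6), read 5′ to 3′ on the gene's strand. Capitals mark matches to a paired homeodomain motif, TGATT and ATCA parted by 2 bases of any kind, and to TATAAA, the TATA box.
Zscan4c, chr7:11005585-11005744, plus strand: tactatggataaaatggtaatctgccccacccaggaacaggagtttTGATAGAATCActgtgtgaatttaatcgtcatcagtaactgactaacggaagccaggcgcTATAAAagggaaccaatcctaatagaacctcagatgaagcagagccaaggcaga
Zscan4d, chr7:11166149-11166308, minus strand: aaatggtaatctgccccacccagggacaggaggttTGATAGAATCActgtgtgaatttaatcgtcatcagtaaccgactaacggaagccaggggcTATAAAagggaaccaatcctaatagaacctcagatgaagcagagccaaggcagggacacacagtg
Zscan4f, chr7:11397755-11397914, plus strand: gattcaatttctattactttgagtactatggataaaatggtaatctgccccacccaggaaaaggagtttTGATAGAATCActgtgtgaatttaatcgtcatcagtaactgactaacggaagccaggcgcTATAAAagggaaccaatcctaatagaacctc
Zscan4b, chr7:10905051-10905210, minus strand: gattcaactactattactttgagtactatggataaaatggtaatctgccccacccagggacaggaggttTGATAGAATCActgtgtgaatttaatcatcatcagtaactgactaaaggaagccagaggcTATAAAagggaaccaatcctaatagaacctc
The paired motif was present in the 250 bases before the start of all 4 Zscan4 genes found in the promoter table, on its minus-strand reading, 91 to 125 bases before the start. It was present in 0.177% of 32851 such windows. The TATA box followed in each of the 4, against 12.4% of all windows. Over 110 bases aligned on the paired motif, Zscan4c and Zscan4f differed at 1 base, Zscan4c and Zscan4d at 4, and Zscan4b and Zscan4c at 6.

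The other members with a sequence in that table have different upstream stretches. Capitals in the next lines mark TATAAA in Usp17lb and, in Zfp352, the most frequent string of 10 bases in its window.
Usp17lb, chr7:104842584-104842743, minus strand: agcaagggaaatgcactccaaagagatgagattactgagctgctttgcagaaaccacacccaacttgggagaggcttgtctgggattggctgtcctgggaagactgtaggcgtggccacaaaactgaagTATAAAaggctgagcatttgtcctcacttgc
Zfp352, chr4:90218660-90218819, plus strand: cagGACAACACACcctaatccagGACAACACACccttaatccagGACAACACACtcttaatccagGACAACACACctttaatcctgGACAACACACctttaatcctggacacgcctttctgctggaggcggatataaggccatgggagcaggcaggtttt
GACAACACAC occurred 9 times in the 250 bases before Zfp352, and 0.0426% of the 32851 windows held it. It was chosen after the sequence had been seen. In all, 9 motifs were searched on both strands, overlapping matches included. The others were TGATT and AATCA parted by 1 base (0.0304% of windows), GATTNAATC, which overlaps it (0.247%), TGCACAC (3.67%), TGATTGA (2.34%), AATCAAT (2.61%) and TAATC joined to CAATCA (0.0213%). None of those 6 was in the windows of Zscan4b, Zscan4c, Zscan4d, Zscan4f, Usp17lb or Zfp352. A match is a description of the letters and not a binding site.

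Of the 9 genes, 8 had all 3 p53-deficient libraries above all 3 WT libraries, and the remaining one, Tcstv1, had all 3 below. Among 32870 genes with a read in any library, 21.3% had p53-deficient libraries wholly higher and 23.1% wholly lower, while among 13629 genes of mean FPKM 0.05 to 2 the shares were 15.2% and 26.2%. Of the tested genes, 37.7% were wholly higher and 33.7% wholly lower. Only 5 members reached the mean of 0.5 FPKM needed for the test across genes: Zscan4c, Zscan4d, Usp17lb, Gm8300 and Eif1a. Each of the 5 was called higher by limma at an adjusted p under 0.05, in a comparison where 35.3% of 15144 tested genes were called higher and 31.3% lower, 66.5% in all. Among the 4364 tested genes of mean FPKM 0.5 to 2, 19.7% were called higher. A low gene passes that filter more easily when 1 group is high, so this count is a description. Without a filter, where 17.0% of 32870 genes were called higher and 17.5% lower (34.5% in all), 8 members were called higher and 1 lower, with a median log2 fold change of 0.44 over the 9 against -0.01 over all genes. Fold changes are on the log2(FPKM + 1) scale, which understates changes of low genes, and ratios of rebuilt reads are therefore given beside them.

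**Figure D1:**
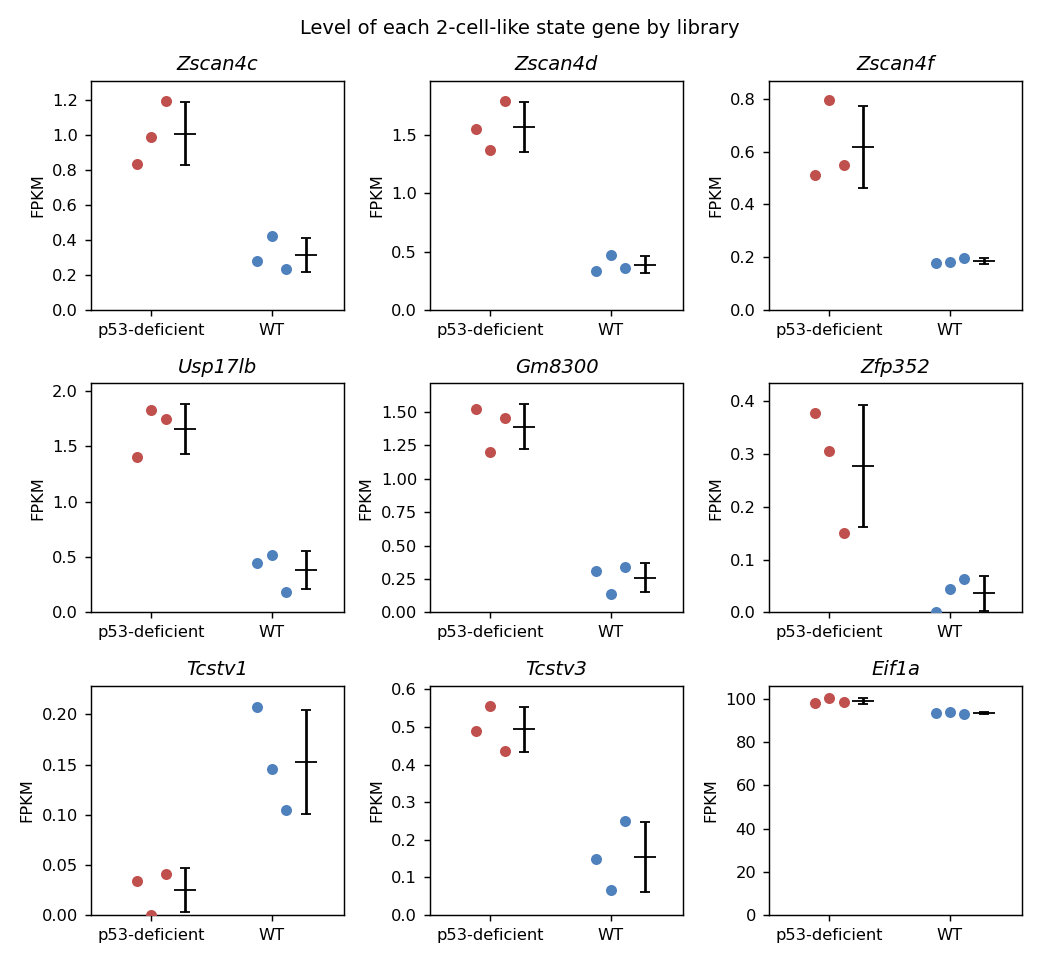
FPKM of each of the 9 genes in each library, with p53-deficient libraries on the left and WT libraries on the right of each panel; the bar beside the points is the mean with SD (n = 3), and each vertical axis starts at 0. The groups do not overlap in any panel, Tcstv1 alone is lower in p53-deficient cells, and Eif1a averages 99.1 FPKM in p53-deficient and 93.6 FPKM in WT cells.

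Zscan4 genes encode zinc finger proteins with a SCAN domain that appear in 2-cell embryos and in the 2-cell-like cells of stem cell cultures, where they are tied to telomere maintenance. Zscan4d, the most abundant copy on average, had 1.55, 1.37 and 1.80 FPKM in p53-deficient libraries and 0.331, 0.469 and 0.363 FPKM in WT libraries. Behind these stood 74, 36 and 72 reads in p53-deficient and 13, 21 and 17 reads in WT libraries. The lowest p53-deficient value was thus well above the highest WT value, with a log2 fold change of 0.89 (SE 0.0874, limma adjusted p = 0.00014).

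Zscan4c gave 0.835, 0.988 and 1.20 FPKM in p53-deficient libraries, against 0.280, 0.423 and 0.235 FPKM in WT libraries. Its log2 fold change was 0.61 (SE 0.1, limma adjusted p = 0.00164), and the depth-adjusted ratio of reads was 3.14 (95% exact interval 2.18 to 4.60, which covers counting error only). Zscan4f stayed under the filter at 0.510, 0.795 and 0.550 FPKM in p53-deficient libraries and 0.177, 0.181 and 0.198 FPKM in WT libraries. All WT values of Zscan4f lay within a narrow band below the p53-deficient ones, and its read ratio of 3.12 (1.86 to 5.41) was close to that of Zscan4c. The fit without a filter called it higher (limma adjusted p = 0.00691).

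The other Zscan4 copies mostly followed. Of the 9 copies, 8 had p53-deficient libraries wholly above WT, and Zscan4b, with 16 reads in p53-deficient and 7 in WT libraries, overlapped. Of all genes with a read 21.3% were wholly higher, and 15.2% of those of mean FPKM 0.05 to 2. Reads of the copies can be exchanged, so the 8 are not separate observations. The copies that reached the filter, and were called higher, did so only through the p53-deficient group, so their number is a description. Beside Zscan4c and Zscan4d they were Zscan4a, listed as a pseudogene, at 1.02 ± 0.263 FPKM in p53-deficient and 0.203 ± 0.0443 FPKM in WT cells, and Zscan4-ps3 at 1.06 ± 0.342 FPKM in p53-deficient and 0.304 ± 0.0276 FPKM in WT cells (SD, n = 3 each). Summed over the copies, the family stood at 6.75, 7.95 and 7.14 FPKM in p53-deficient libraries and at 1.59, 2.28 and 1.95 FPKM in WT libraries. The mean sum was 3.75 times higher in p53-deficient cells, a difference of 1.92 in log2 of the sum, with no pseudocount (SE 0.166). An exact two-sided permutation test gave p = 0.1, the smallest that 3 libraries against 3 allow. Reads of the family, whose total does not depend on how they were split among the listed copies, numbered 782 in p53-deficient and 244 in WT libraries, a depth-adjusted ratio of 3.62 (3.13 to 4.20).

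**Figure D2:**
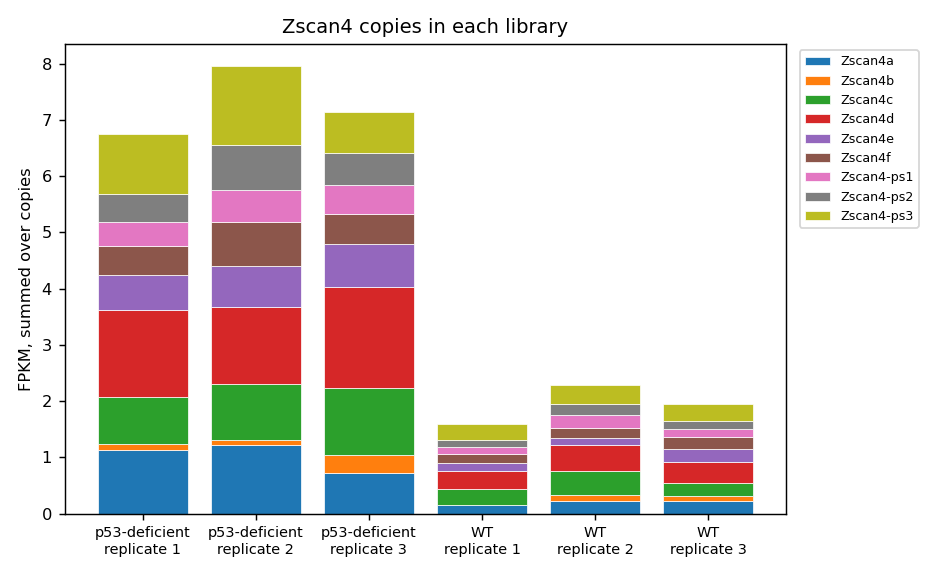
FPKM of the 9 Zscan4 copies stacked in each library, p53-deficient libraries on the left and WT libraries on the right. The 3 p53-deficient sums lie between 6.75 and 7.95 FPKM and the 3 WT sums between 1.59 and 2.28 FPKM, while each library holds a mixture of copies.

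Zscan4d made up 22.9%, 17.2% and 25.2% of the summed FPKM in p53-deficient libraries and 20.8%, 20.5% and 18.7% in WT libraries. These shares overlap between the groups. The sources used here do not give the handling of reads with several matches, so the level of any one copy is uncertain.

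Usp17lb belongs to a family of ubiquitin specific peptidases, which remove ubiquitin from proteins. It lies on chromosome 7 (mm10, 104840257 to 104842603). Its levels were 1.40, 1.83 and 1.74 FPKM in p53-deficient libraries and 0.445, 0.520 and 0.187 FPKM in WT libraries. The WT libraries varied widely among themselves and still lay below every p53-deficient library, with a log2 fold change of 0.95 (SE 0.119, limma adjusted p = 0.000456) and a read ratio of 4.22 (2.87 to 6.36). All 5 Usp17l genes of the table had p53-deficient libraries wholly higher, as had 21.3% of all genes with a read and 15.2% of those of mean FPKM 0.05 to 2. Usp17le, which like Usp17lb reached the filter only through the p53-deficient group, was called higher at 1.30 ± 0.134 FPKM in p53-deficient and 0.291 ± 0.163 FPKM in WT cells. Read ratios of the remaining 3 were 3.17 for Usp17la, 6.10 for Usp17lc and 7.34 for Usp17ld, with wide intervals of 2.08 to 4.94, 3.49 to 11.4 and 3.09 to 21.2. Usp17lc and Usp17ld share 97.8% of 1988 aligned bases. Reads of those genes can be exchanged, so the 5 are not all separate observations. The 5 summed to 4.32, 4.68 and 4.94 FPKM in p53-deficient libraries, against 1.04, 1.20 and 0.860 FPKM in WT libraries (exact permutation p = 0.1, two-sided). Usp17lb itself has no copy at 95% identity or more, its transcript being 90.3% to 91.6% identical to those of the other 4, so its reads are less exposed to sharing than those of Zscan4.

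Gm8300 lies in a cluster on chromosome 12 (mm10, 87514316 to 88274500) of genes that resemble Eif1a. Eif1a encodes a translation initiation factor that helps the ribosome scan for the start codon. The longest open reading frame of Gm8300 has 144 residues and is 95.1% identical to that of Eif1a over its full length. Of the 14 symbols in the list of Eif1a-like genes, 10 had such a frame, at 91.7% to 95.1% identity, while Gm4340, Gm21293, Gm21304 and Gm21312 on chromosome 10 had none.

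Gm8300, at 87514316 to 87518266, stood at 1.52, 1.20 and 1.45 FPKM in p53-deficient libraries and at 0.309, 0.135 and 0.337 FPKM in WT libraries. Its log2 fold change was 0.93 (SE 0.0977, limma adjusted p = 0.000196) and its read ratio 5.41 (3.58 to 8.44), and no library of one group reached the range of the other. Gm8332, annotated over coding bases only and 99.5% identical to Gm8300 across its 435 bases, was the highest of the cluster per length at 6.21 ± 0.487 FPKM in p53-deficient and 1.37 ± 0.510 FPKM in WT cells (log2 fold change 1.63, limma adjusted p = 0.000144). It had 136 reads in p53-deficient and 35 in WT libraries. Gm8332 is also 95.2% identical to the far more abundant Eif1a over 434 bases, and whether reads of Eif1a add to its level was not tested. Gm5662 had 1.96 ± 0.136 FPKM in p53-deficient and 0.495 ± 0.0721 FPKM in WT cells, and Gm2016 had 1.37 ± 0.0902 FPKM in p53-deficient and 0.534 ± 0.118 FPKM in WT cells (SD, n = 3 each). Gm8300, Gm5662, Gm2016 and Gm8332 were the genes of the list that passed the filter, Gm8300 and Gm5662 only through the p53-deficient group. Each was called higher, as were 35.3% of all tested genes and 19.7% of those of mean FPKM 0.5 to 2. Gm8332, at a mean of 3.79 FPKM, lies above that range. The other 7 with a read had 1 to 39 reads in the p53-deficient libraries together, and 5 of them had overlapping groups: Gm2022, Gm2056, Gm2075, Gm6803 and Gm21319. The list summed to 11.6, 12.2 and 13.8 FPKM in p53-deficient libraries and averaged 3.35 ± 0.657 FPKM in WT libraries (SD, n = 3, exact permutation p = 0.1, two-sided), a log2 difference of 1.65 on the log2(sum + 1) scale. Gm8332 alone made up 50.7%, 49.1% and 48.9% of the sum in p53-deficient libraries and 29.7%, 44.9% and 44.7% in WT libraries.

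Eif1a itself was abundant, at 98.0, 101 and 98.7 FPKM in p53-deficient libraries and 93.6, 94.1 and 93.1 FPKM in WT libraries. The groups did not overlap, but the difference was small, with a log2 fold change of 0.08 (SE 0.0205, limma adjusted p = 0.0115) and a read ratio of 1.04 (1.02 to 1.06). It did not pass when libraries were scaled by their median log2 ratio (log2 fold change -0.013, limma adjusted p = 0.614), after quantile normalization (adjusted p = 0.855) or without a variance trend (adjusted p = 0.0540), and over all its alternatives adjusted p lay between 0.0115 and 0.855. Without any 1 library its adjusted p was at most 0.0448. The interval of its read ratio lay wholly below the 3.58 at which that of Gm8300 began.

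Zfp352 encodes a zinc finger protein of the early mouse embryo. Its locus is on chromosome 4 (mm10, 90218820 to 90225702). It was among the lowest members, with 0.376, 0.304 and 0.149 FPKM in p53-deficient libraries and 0, 0.0446 and 0.0640 FPKM in WT libraries. These are 18, 8 and 6 reads in p53-deficient and 0, 2 and 3 reads in WT libraries, so each p53-deficient library had more reads than any WT library. The read ratio was 7.23, with an interval of 2.80 to 23.8, and the fit without a filter called it higher (limma adjusted p = 0.0218).

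Tcstv1 and Tcstv3, both named for transcripts of the 2-cell stage, lie on chromosome 13 (mm10, 119893388 to 119894785 and 120316878 to 120318178) and went in opposite directions. Tcstv3 was at 0.488, 0.555 and 0.437 FPKM in p53-deficient libraries and at 0.149, 0.0651 and 0.249 FPKM in WT libraries. Tcstv1 was at 0.0340, 0 and 0.0405 FPKM in p53-deficient libraries and at 0.207, 0.145 and 0.104 FPKM in WT libraries. Few reads stand behind either, 19 in p53-deficient and 7 in WT libraries for Tcstv3, and 2 in p53-deficient and 12 in WT libraries for Tcstv1. The read ratios were 3.07 (1.23 to 8.63) for Tcstv3 and 0.188 (0.0205 to 0.846) for Tcstv1, and the fit without a filter called both (limma adjusted p = 0.0102 and 0.0209). Their transcripts are 92.2% identical over 656 bases, and Tcstv1 has a nearer copy, Gm21818, at 96.0%, with 10 reads in p53-deficient and 12 in WT libraries. Summed, both genes stood at 0.522, 0.555 and 0.477 FPKM in p53-deficient and 0.356, 0.210 and 0.354 FPKM in WT libraries (exact permutation p = 0.1, two-sided), and had 21 reads in p53-deficient and 19 in WT libraries, a ratio of 1.25 whose interval of 0.639 to 2.45 includes no difference.

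**Figure D3:**
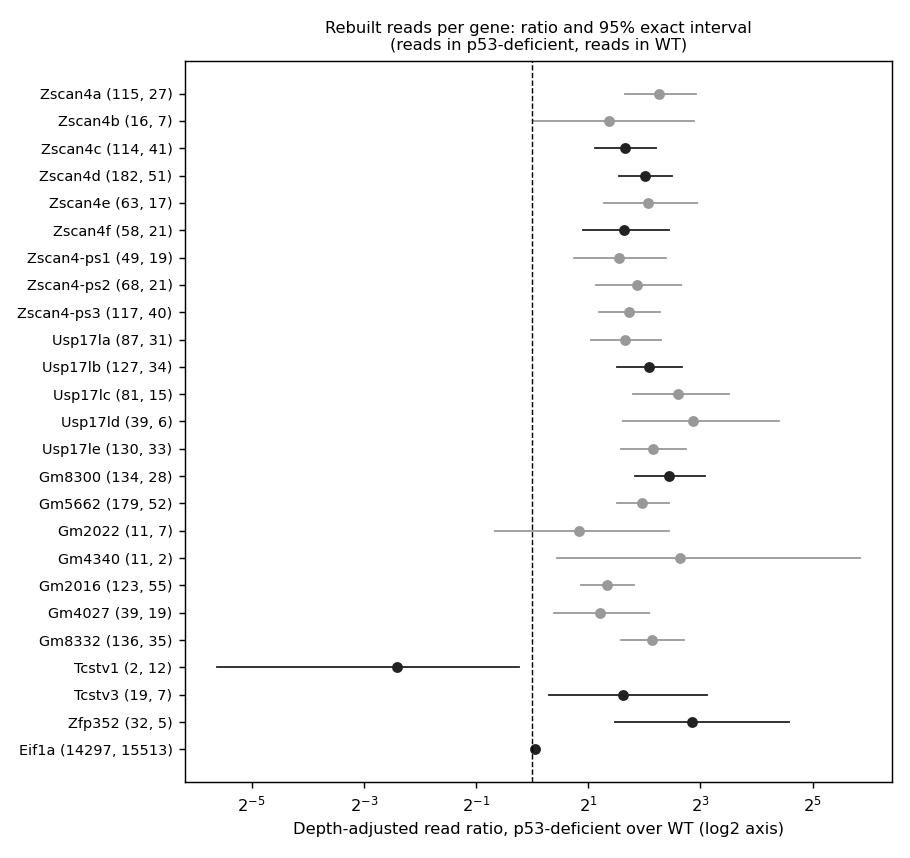
Depth-adjusted ratio of rebuilt reads, p53-deficient over WT, with its 95% exact binomial interval on a log2 axis, for each gene of the families with at least 10 reads in all; the reads of both groups stand beside each name, members are in black and other copies in grey. Most Zscan4, Usp17l and Eif1a-like copies lie between ratios of 2 and 8, Eif1a lies at 1.04, and Tcstv1 lies below 1.

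**Figure D4:**
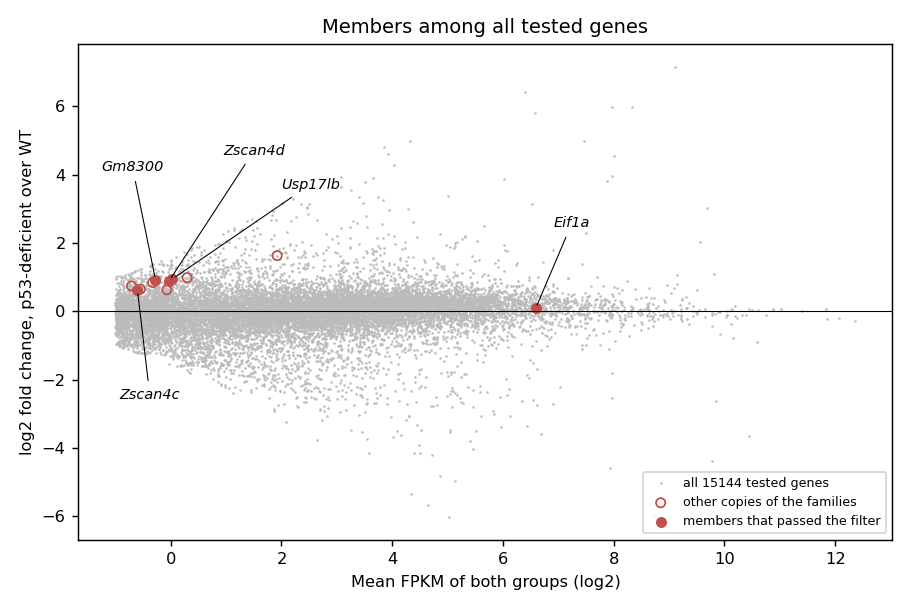
Log2 fold change of each tested gene against its mean FPKM on a log2 axis, with the 5 members that passed the filter as filled points, their tested copies as open circles and all tested genes in grey. Zscan4c, Zscan4d, Usp17lb and Gm8300 lie above 0, between 0.61 and 0.95, and Eif1a lies near 0. Other genes of similar level lie higher, such as 4930535L15Rik at 1.39 and 9330159F19Rik at 1.58. The log2(FPKM + 1) scale bounds the change of low genes.

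Other genes of the 2-cell program came from a list of 26 symbols. Only 3 of the 25 in the table passed the filter, and all 3 fell, as did 31.3% of all tested genes: Ddit4l, with a log2 fold change of -1.85 (limma adjusted p = 1.8e-05), Pramel7, an oocyte and embryo gene of the Prame family, with -0.66 (adjusted p = 0.00312), and Pramel6 with -0.28 (adjusted p = 0.0400). Pramel6 had overlapping groups and lost its call without p53-deficient replicate 2 (limma adjusted p = 0.104), p53-deficient replicate 3 (0.0846), WT replicate 1 (0.118) or WT replicate 2 (0.101), without a filter (0.0811) and after quantile normalization (0.0994). Among the 21 with a read, 8 had p53-deficient libraries wholly higher, 3 wholly lower and 10 overlapped. Of all genes with a read, 21.3% were wholly higher and 23.1% wholly lower. The fit without a filter called 5 of the 21 higher and 3 lower, beside 17.0% and 17.5% of all genes, which is no result about the list. The 5 were Tdpoz3, Tdpoz4, Lmx1a, Arg2 and Gm13119. Tdpoz4 had 13, 13 and 10 reads in p53-deficient and 0, 1 and 2 reads in WT libraries. Tdpoz3 had 24 reads in p53-deficient and 1 in WT libraries, a ratio of 27.1 with an interval of 4.42 to 1115. Sp110, at 11 reads in p53-deficient and 72 in WT libraries, was the lowest-ranking by ratio at 0.173 (0.0825 to 0.327) apart from Ddit4l. The low genes named here were picked with their values in view. Duxf3, the table's entry for the Dux locus, had 4, 1 and 6 reads in p53-deficient and 3, 3 and 0 reads in WT libraries, which overlap, and a difference was not detectable at this depth (ratio 2.07, 0.702 to 6.82).

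Most regulators of the state were far more abundant. Of 5 listed activators, 4 rose, where 35.3% of all tested genes did: Dppa4 to 68.0 ± 2.54 FPKM in p53-deficient cells, against 42.7 ± 0.550 FPKM in WT cells, and Dppa2, its partner in chromatin binding, to 61.5 ± 0.313 FPKM in p53-deficient cells, against 51.7 ± 2.74 FPKM in WT cells (SD, n = 3 each). Their log2 fold changes were 0.66 and 0.25 (limma adjusted p = 5.39e-06 and 0.00141). Nelfa, of the negative elongation factor complex, had 0.33 (adjusted p = 0.00038), as had the T-box factor Tbx3 (adjusted p = 3.6e-05), while Gata2 was at 1.64 ± 0.271 FPKM in p53-deficient and 1.49 ± 0.141 FPKM in WT cells and did not pass. All 4 calls held under both scaling alternatives. They also held in the fit of genes of mean FPKM at least 5, where 3676 of 7752 genes were called higher.

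Repressors of the state were mostly higher as well. Of 23, 18 were called higher, 3 lower and 2 did not pass, with a median log2 fold change of 0.25 against 0.03 over all tested genes, of which 35.3% were called higher and 31.3% lower. Most repressors are abundant, and abundant genes were called higher more often. In the fit of 7752 genes of mean FPKM at least 5, 3676 were higher and 2268 lower, with a median of 0.10. The 22 repressors in that fit gave 18 higher and 3 lower, with a median of 0.26. Under either scaling alternative 13 repressors were higher and 3 lower, while all tested genes gave 4296 higher and 5584 lower with median ratio scaling and 5553 higher and 4516 lower with quantile normalization. Lin28a, an RNA-binding protein that restrains Dux together with nucleolin, rose most, to 89.3 ± 1.96 FPKM in p53-deficient cells, against 30.9 ± 0.103 FPKM in WT cells (log2 fold change 1.5, limma adjusted p = 6.13e-08). Setdb1, which methylates histone H3 at lysine 9, rose with 0.94, the histone H3.3 chaperone gene Daxx with 0.83, E2f6 of a Polycomb complex with 0.50 and the histone demethylase gene Kdm1a with 0.45, and these 5 calls held under both scaling alternatives. Chaf1b, a chromatin assembly factor subunit, was at 24.4 ± 0.662 FPKM in p53-deficient and 22.9 ± 0.845 FPKM in WT cells and did not pass. Fibroblast marker levels were lower in the same p53-deficient libraries, and their part in these values was not tested.

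**Figure D5:**
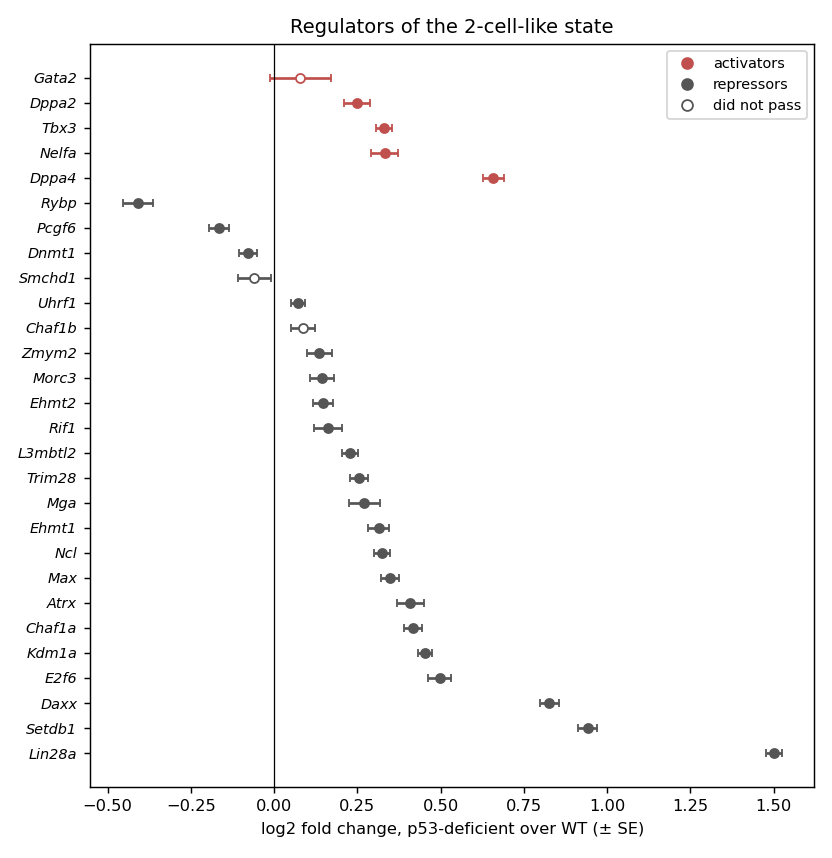
Log2 fold change with SE of 5 activators (red) and 23 repressors (grey) of the 2-cell-like state, p53-deficient over WT; filled points passed the test at an adjusted p under 0.05 and open points did not. Lin28a, at 1.5, stands furthest to the right, and Rybp, at -0.41, furthest to the left.

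The profile of the summed Zscan4 family over the 6 libraries was also set against every tested gene outside the lists, by the root mean square difference of centred log2(FPKM + 1) values. The 5 nearest were Plaur, Gm5976, 3830403N18Rik, Tuba3b and Nptx2, at 0.0699 to 0.0793 on that scale. Plaur, the urokinase receptor gene, had 19.8, 19.4 and 19.5 FPKM in p53-deficient and 5.51, 7.04 and 6.25 FPKM in WT libraries. Tuba3b, a tubulin gene, averaged 18.0 ± 1.06 FPKM in p53-deficient and 6.27 ± 0.442 FPKM in WT cells. Likeness over 6 libraries of 2 groups rests mainly on the group difference.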

How the data were processed

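RNA was measured in 3 p53-deficient and 3 WT libraries. The authors deposited 1 table of FPKM per gene with gene lengths. HISAT2 2.0.5, featureCounts 1.5.0-p3 and build mm10 are listed, without roles, per the submitters' processing notes. The library kit named in the labels' protocols is not stated to mark the strand. Multiplied by gene length, 100% of the values above 0 were whole multiples of what 1 read is worth (tolerance 0.001). Reads were rebuilt from this and compared as ratios, with 95% exact binomial intervals for counting error.

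Genes whose mean reached 0.5 FPKM were tested on log2(FPKM + 1) in R 4.3.3 by limma 3.58.1 (variance trend, two-sided, Benjamini-Hochberg over 15144 genes, called at an adjusted p under 0.05). Families of copies were summed and compared by exact permutation (scipy 1.17.1), Zscan4 as log2 of the sum and the others as log2(sum + 1). Copies were sought with BLAST+ 2.17.0 among longest GENCODE M21 transcripts, at 95% identity, with an alignment of 100 bases or more that takes in 50% of the shorter one. The fit was tested on simulated reads.

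Members and lists were chosen with earlier results of these data known. The text names the 9 members, family copies with reads, for other lists up to 5 called genes and the most abundant that did not pass, Trp53 and the 5 nearest profiles, and other names were chosen after their values were seen. Alternatives were a pseudocount of 0.1, other filters, quantile normalization, scaling by the median log2 ratio, the replicate number as a block, voom on rebuilt reads, a fit with no variance trend, an adjusted p under 0.01, families without copies that the biotype or description calls a pseudogene, and each library left out in turn.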

Additional observations from a re-analysis of the deposited data

How the results depend on the processing

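The number of members called higher, 5, depended on the filter, since 4 members lie under 0.5 FPKM: it was 8, with 1 called lower, without a filter, and 1 among genes of mean FPKM at least 5, where 5944 of all genes were called in place of 10074. It was 4 with each scaling alternative, without a variance trend and at an adjusted p under 0.01. Leaving out each library in turn kept it at 5, and 9193 to 9746 genes were then called. Eif1a was the member that lost its call, and its log2 fold change turned to -0.013 after scaling by the median log2 ratio. Zscan4c, Zscan4d, Usp17lb and Gm8300 passed in all 13 alternatives that held them. With the replicate number as a block 5 members and 9766 genes were called. Same-numbered libraries had correlations of -0.0328, 0.0142 and 0.00556 between their deviations from the group means. These values cannot tell whether such libraries were handled together, since an effect on few genes would leave them near 0. The log2 difference of the summed Zscan4 family lay between 1.78 and 2.04 over its alternatives. That of Tcstv1 and Tcstv3 was 0.22, against 0.63 with a pseudocount of 0.1 and 0.09 for rebuilt reads scaled to the library total (exact permutation p = 0.2). For the Eif1a-like list it was 1.33 without copies described as pseudogenes, and 1.63 for the 10 genes with an Eif1a-like frame, an alternative chosen after seeing the data. Depth limits Tcstv1, Tcstv3, Zfp352, Zscan4b and Duxf3, which had under 40 reads in either group.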

Other observations

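The Eif1a-like cluster on chromosome 12 holds more genes than the list. Between 87514316 and 88274500 (mm10) the table held 58 other genes, of which 18 had a read. Of these, 6 had p53-deficient libraries wholly higher, 0 wholly lower, and 12 overlapped, with 21.3% of all genes with a read wholly higher and 23.1% wholly lower. Among the 6, BB287469, Gm48388, Gm2035 and Gm8607 were 98.4% to 99.8% identical to genes of the list. Other near-identical copies did not all follow. In the cluster, Gm16368 (5 reads in p53-deficient, 7 in WT libraries) and Gm21936 (4 and 0) overlapped. Outside it, Gm5788 (8 and 9, 98.6% identical) and Gm4312 (4 and 2) overlapped, while Gm5039 (81 and 47, 97.5% identical) was wholly higher. Reads of all these copies can be exchanged with those of the list, so they are not separate observations. Gm1995, a processed pseudogene, had 56 reads in p53-deficient and 3 in WT libraries, and Gm48388 had 16 in p53-deficient and 4 in WT libraries. In the Zscan4 cluster on chromosome 7, 44 other genes were listed and 10 had a read, with 10 reads or fewer in either group each. Of those, 1 was wholly higher in p53-deficient libraries, 2 wholly lower and 7 overlapped, which is no result about the cluster beside the same shares. Zfp353-ps, the nearest copy of Zfp352 at 95.2% identity, had 6, 1 and 1 reads in p53-deficient and none in WT libraries. All were picked with their values in view.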
